A study of Mus musculus with 9 samples.

Results

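The genes described here are 8 members of the S100 family: S100a8, S100a9, S100a4, S100a6, S100a10, S100a11, S100a13 and S100a1. They were chosen by name, as rows of a table of 24296 genes, and all 8 were present. The data came from Seq-Well, which captures single cells in small wells and counts their polyadenylated RNA by molecular tags, applied to whole left knee joints. Sick mice (n = 5, numbered 1, 3, 4, 5 and 6) had antigen-induced arthritis, raised by sensitizing the animals to methylated bovine serum albumin (mBSA) and then injecting mBSA into the knee. Healthy mice (n = 4, numbered 1 to 4) received an injection of phosphate-buffered saline into the same knee, and the labels do not say whether they were sensitized. All mice were 129/Sve females, 8 weeks old, and their joints were taken 1 week after the injection. The labels record neither a genetic modification nor a processing batch. They state that arthritis was checked by immunohistochemistry in the sick mice. Each mouse was counted as 1 replicate.

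S100 proteins are small calcium-binding proteins of the EF-hand type that act mostly as pairs. S100a8 and S100a9 together form calprotectin, the main cytosolic protein of neutrophils, which is released at sites of inflammation and signals through the receptor TLR4. S100a4 and S100a6 are found in motile and connective tissue cells, S100a10 and S100a11 bind annexins at membranes, S100a13 takes part in the release of signal proteins that lack a leader peptide, and S100a1 is best known from heart and skeletal muscle.

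All 8 genes lie on mouse chromosome 3 in the GENCODE M21 annotation (GRCm38). The genes from S100a1 to S100a9 lie within chr3:90511034-90695721, and S100a11 and S100a10 lie within chr3:93520488-93564643. S100a8 is on the plus strand at chr3:90668978-90670035 and its partner S100a9 on the minus strand at chr3:90692632-90695721. S100a1 (minus strand) and S100a13 (plus strand) start head to head, 42 bases apart. S100a11 has a processed pseudogene copy, S100a11-ps, on chromosome 12, and S100a4 overlaps the gene model Gm42674 on the same strand, so reads of S100a11 and S100a4 could be split with these and their levels are uncertain.

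The 250 bases before the RefSeq start of S100a8 and S100a9 (GRCm38.p6) are shown because these genes had by far the highest levels of the members. Each is printed from 5′ to 3′ on the strand of its gene, and capitals mark matches to the 5 motifs searched. RefSeq places the start of S100a8 downstream of the GENCODE gene start given above.
S100a8, chr3:90668821-90669070, plus strand: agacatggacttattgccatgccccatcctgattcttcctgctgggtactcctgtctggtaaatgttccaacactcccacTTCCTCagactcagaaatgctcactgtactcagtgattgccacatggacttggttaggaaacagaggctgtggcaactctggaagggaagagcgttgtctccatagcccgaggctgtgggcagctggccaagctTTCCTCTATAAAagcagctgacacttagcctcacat
S100a9, chr3:90695722-90695971, minus strand: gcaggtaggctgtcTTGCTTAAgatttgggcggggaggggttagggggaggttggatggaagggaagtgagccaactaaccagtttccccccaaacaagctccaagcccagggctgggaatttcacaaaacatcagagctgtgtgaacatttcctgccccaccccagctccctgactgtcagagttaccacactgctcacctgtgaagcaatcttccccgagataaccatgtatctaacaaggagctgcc
The motifs were those of C/EBP factors (TTGCNNAA), PU.1 (GAGGAA), the TATA box (TATAAA), AP-1 (TGANTCA) and the interferon-stimulated response element, on either strand. The S100a8 window held 1 TATA match, 30 bases before the start, and 2 PU.1 matches on the reverse strand, 36 and 170 bases before it. The TATA match and the nearer PU.1 match abut without overlap. The S100a9 window held 1 C/EBP match, 236 bases before the start. Of 32851 RefSeq promoter windows, 9.56% held the C/EBP letters, 23.3% those of PU.1 and 12.4% those of the TATA box. These matches describe the letters only.

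The table held 16751 cells, of which 16749 passed limits of 200 genes (lower) and 20% mitochondrial counts (upper). They comprised 12200 cells of sick mice and 4549 of healthy mice, with 896930 to 4675909 counts per mouse. S100a8 and S100a9 together took 8.25 to 13.6% of all counts in sick mice and 3.58 to 8.39% in healthy mice. The other 6 members together took at most 0.163% in any mouse. Healthy mice 2, 3 and 4 stood apart from healthy mouse 1. Their median cell held 273 to 290 genes, against 402 in healthy mouse 1 and 357 to 391 in sick mice. Haemoglobin genes took 10.2 to 27.9% of the counts in sick mice, 35.3 to 39.7% in healthy mice 2, 3 and 4, and 17.6% in healthy mouse 1. Mitochondrial genes took 3.09 to 6.05% in sick mice, 6.94 to 10.3% in healthy mice 2, 3 and 4, and 5.48% in healthy mouse 1. The gene Gm42418 separated the groups, at 0.901 to 2.20% in sick mice and 2.38 to 6.13% in healthy mice. Chondrocytes were nearly absent (2 cells by their markers) and 101 cells were called fibroblasts, and most assigned cells were of marrow and blood types. Each of 16 cells carried a barcode also found in another mouse.

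In the joint as a whole, every member had a higher mean in sick mice than in healthy mice, but none passed the test over all genes. Values are CPM, counts scaled to a common library total, after TMM scaling, which sets the bulk of genes equal, and the test was edgeR's quasi-likelihood test on counts summed per mouse with Benjamini-Hochberg adjustment. It called 97 of 10323 genes (0.94%), 66 higher and 31 lower in sick mice, and 0 of the 8 members. At an unadjusted p under 0.05, 5 of the 8 members (S100a8, S100a9, S100a6, S100a11 and S100a13) were higher in sick mice, where 7.43% of all tested genes were. DESeq2 called 2 members, S100a8 and S100a9, among 2.46% of genes. Fewer cells of a type and less RNA per cell cannot be told apart in such sums.

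S100a8, the more abundant chain of calprotectin, was at 77325, 64031, 53155, 77209.8 and 74481 CPM in sick mice 1, 3, 4, 5 and 6, against 48638, 42760.3, 38436 and 32819.9 CPM in healthy mice 1 to 4. Every sick mouse was above every healthy mouse, as held for 2.85% of tested genes. The means were 69240.3 ± 10514 CPM in sick mice and 40664 ± 6695 CPM in healthy mice (SD, n = 5 and 4), and the fold was 0.77 ± 0.25 on the log2 scale (SE, adjusted p = 0.185). TMM scaling narrowed this gap, with a mean log2 factor of 0.14 in sick mice and -0.18 in healthy mice. Without it, S100a8 averaged 74936 ± 13189.6 plain CPM in sick mice and 36648 ± 14019.5 plain CPM in healthy mice.

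S100a9, the other chain of calprotectin, was at 33685, 29886, 22244, 33949 and 32742 CPM in sick mice 1, 3, 4, 5 and 6, against 23981, 19901, 18896 and 14173 CPM in healthy mice 1 to 4. Sick mouse 4 was below healthy mouse 1, so the groups overlapped. Its fold was 0.66 ± 0.24 on the log2 scale (SE, adjusted p = 0.222). For both chains sick mouse 4 was the lowest of the sick mice and healthy mouse 1 the highest of the healthy mice.

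Among the other members, S100a6, also called calcyclin, had the largest fold, 0.96 ± 0.30 on the log2 scale (SE, adjusted p = 0.157). It was at 351, 452, 197, 362 and 379 CPM in sick mice 1, 3, 4, 5 and 6, against 318, 164, 132 and 95.2 CPM in healthy mice 1 to 4. Healthy mouse 1 lay above sick mouse 4, and the other healthy mice below every sick mouse. Without healthy mouse 1 the fold of S100a6 was 1.42 (adjusted p = 0.00943), the only member called in that comparison, where 2.21% of genes were.

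S100a13 was the other member whose groups did not overlap, as held for 2.85% of tested genes. It was at 105, 95.5, 82.3, 107 and 100.5 CPM in sick mice 1, 3, 4, 5 and 6, against 77.7, 73.1, 59.6 and 65.1 CPM in healthy mice 1 to 4, and its fold was 0.51 ± 0.15 on the log2 scale (SE, adjusted p = 0.124). S100a11, an annexin A1 partner, differed by 0.70 ± 0.28 on the log2 scale (SE, adjusted p = 0.286), with sick mouse 4 among the healthy values. S100a4 differed by 0.65 (adjusted p = 0.43) and S100a10 by 0.36 (adjusted p = 0.46) on the log2 scale. S100a1 was at 65.1, 62.6, 50.1, 47.7 and 48.4 CPM in sick mice 1, 3, 4, 5 and 6, against 52.6, 48.7, 54.8 and 42.8 CPM in healthy mice 1 to 4, and these ranges overlapped.

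**Figure D1:**
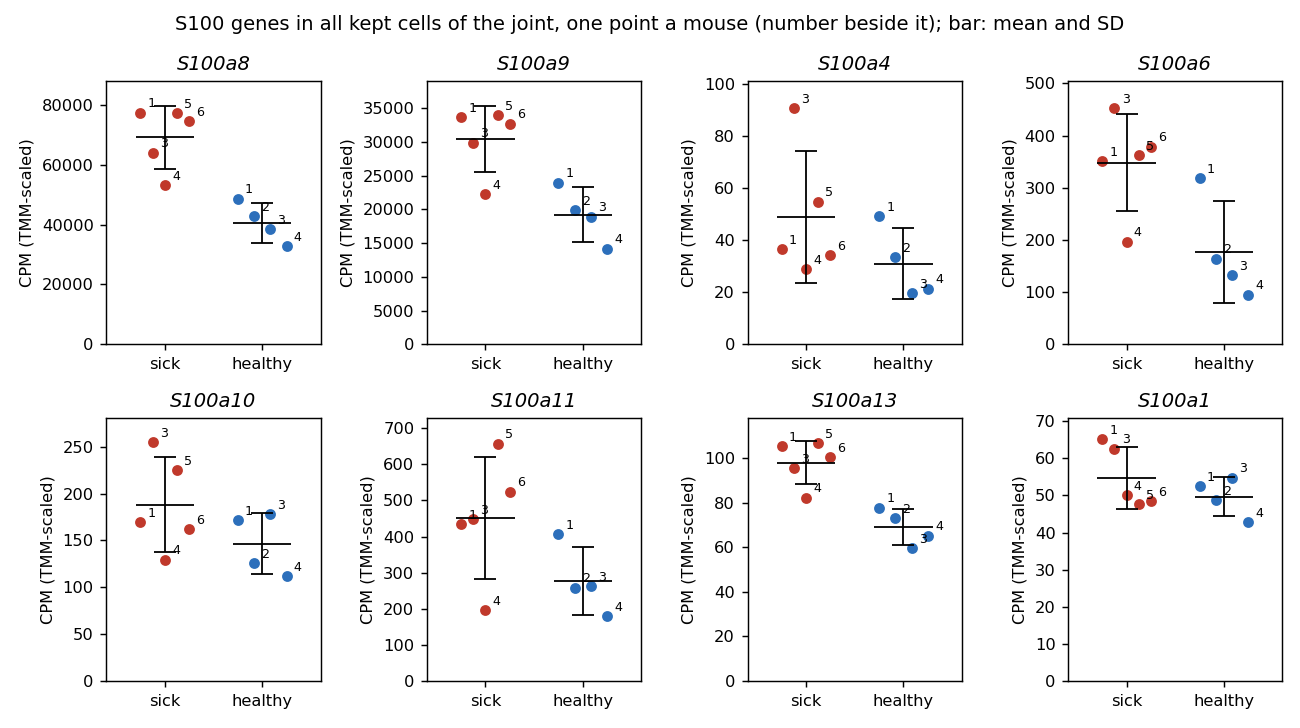
CPM after TMM scaling (linear axis from 0) of each member in all kept cells, with 1 point per mouse (number beside it), sick mice left of healthy mice, and the mean and SD as bars. S100a8 and S100a13 are the 2 members whose groups do not overlap, with every sick mouse higher, as held for 2.85% of tested genes. Healthy mouse 1 is the highest healthy mouse for S100a8, S100a9, S100a4, S100a6, S100a11 and S100a13.

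To place the members in cells, each cell was assigned to a class by marker genes, none of them an S100 gene. A first rule asked for at least 3 different markers of a class and at least 2 times as many as of any other class. It called 7766 cells neutrophils and left only neutrophils and erythroid cells with 20 cells in at least 3 mice of each group. A second rule, chosen after the data were seen, asked that the summed markers of a class exceed what the same mouse's average profile predicts (Poisson p under 0.001, at least 2 different markers, and a −log10 p at least 2 times that of any other class). It assigned 8237 cells. Pooled over mice, neutrophils by the second rule were 3382 of 12200 kept cells in sick mice and 683 of 4549 in healthy mice. By the first rule they were 6037 in sick mice and 1729 in healthy mice. The second rule takes its limit from each mouse's own average, so its cell numbers are not on a common scale between mice. Fibroblasts by the second rule were 96 cells in sick mice and 5 in healthy mice. The part of this cell make-up in the folds of the whole joint was not tested. Neutrophils, granulocyte progenitors, monocytes or macrophages, B cells and erythroid cells could then be compared over all 9 mice, and eosinophils over 5 sick and 3 healthy mice. B cells were allowed 10 cells per mouse. The cell type values below come from the second rule unless stated.

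Neutrophils held the highest S100a8 and S100a9 of all classes. In plain CPM within a class, which are used wherever classes are compared, neutrophil S100a8 was 179405 ± 15932 plain CPM in sick mice and 117728 ± 32350.3 in healthy mice (SD, n = 5 and 4). Neutrophil S100a9 was 80026 ± 8299 plain CPM in sick mice and 57099 ± 16917 in healthy mice. Both were nevertheless counted in every class. Erythroid cells, red cell precursors that are not known to make calprotectin, had S100a8 at 20522 ± 3325 plain CPM in sick mice and 9759.9 ± 4353 in healthy mice. B cells had S100a8 at 22257 ± 3357 plain CPM in sick mice and 11424 ± 5026 in healthy mice. After thinning every cell to 400 counts, the share of erythroid cells with S100a8 was 98.9% ± 1.48 in sick mice and 85.3% ± 12.7 in healthy mice. The share of B cells with S100a8 was 97.4% ± 2.06 in sick mice and 90.2% ± 9.48 in healthy mice. Median depth was 1265 counts in sick and 1310.0 in healthy erythroid cells, and 853 in sick and 761 in healthy B cells. The erythroid and B cell levels were taken as the measure of free RNA, RNA from broken cells that is captured with any cell. That level was not the same in every class. Plasma cells of 2 sick mice held 46046 ± 8375 plain CPM of S100a8 and skeletal muscle cells of 2 sick mice 49110.5 ± 6932, and neither type is known for the gene. These ranges overlapped that of granulocyte progenitors in sick mice, 31915 to 46378 plain CPM.

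**Figure D2:**
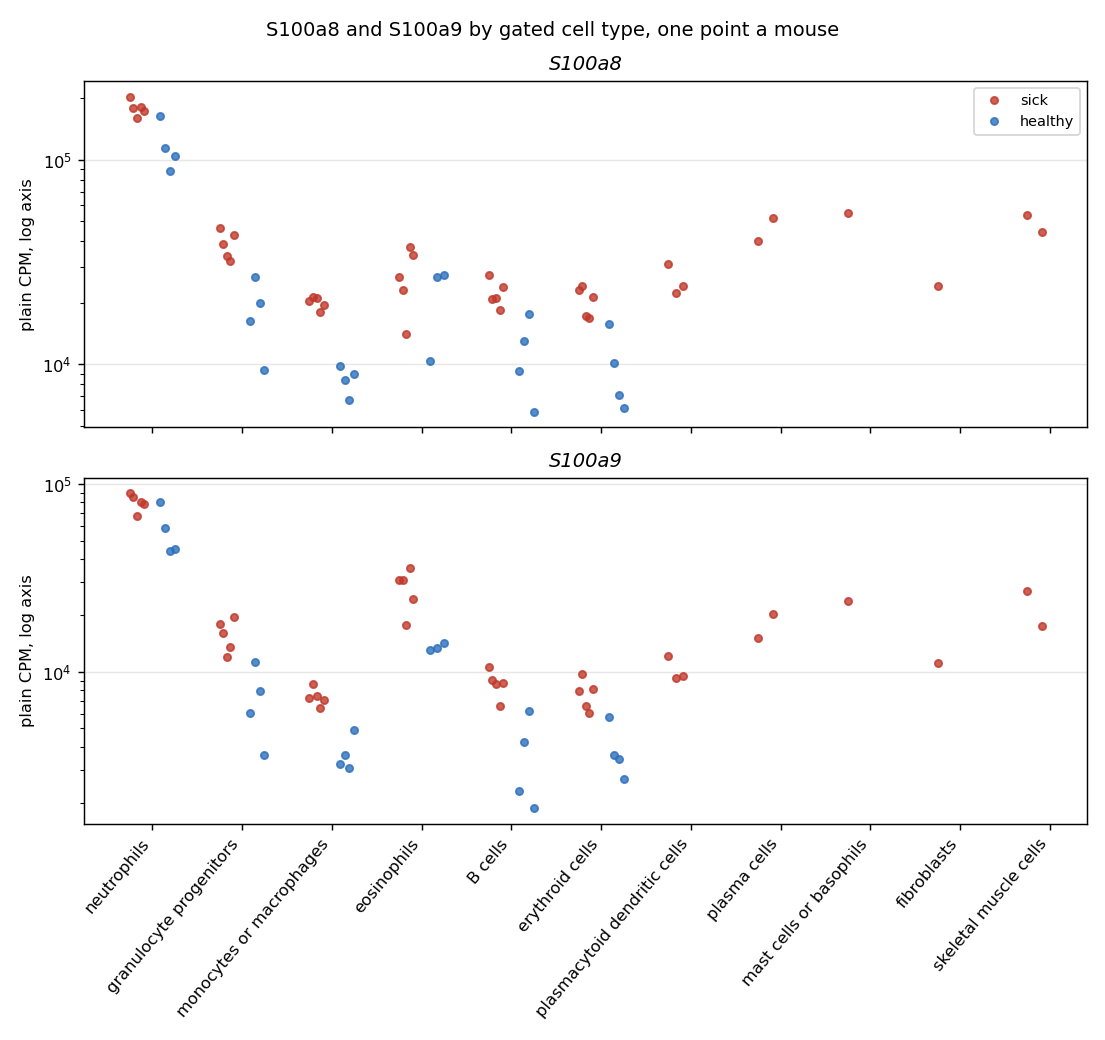
Plain CPM (log axis) of S100a8 and S100a9 by gated cell type, with 1 point per mouse, sick mice left of healthy mice within each class. Neutrophils stand highest, and monocytes or macrophages lie at the level of erythroid cells and B cells in both groups.

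Against erythroid cells of the same mouse, S100a8 was 10.3-fold higher in neutrophils and S100a9 12.2-fold higher, in 9 of 9 mice each (geometric means, exact sign-flip permutation test, two-sided, adjusted p = 0.0082 for each over 42 comparisons, from 0.00391, the smallest p it can give). Granulocyte progenitors, the Mpo and Elane positive precursors of neutrophils, held 1.87 times the erythroid level of S100a8 and 1.93 times that of S100a9, again in 9 of 9 mice (adjusted p = 0.0082 each, same exact test). Summed neutrophil markers were also higher in granulocyte progenitors, at means of 17427 plain CPM in sick and 8074 in healthy mice. In erythroid cells they averaged 9792 in sick and 5418 in healthy mice. Their part in the progenitor ratios was not tested. Monocytes or macrophages did not stand above erythroid cells. Their S100a8 was 0.956 times the erythroid level and higher in 3 of 9 mice (adjusted p = 0.623, exact test). Their S100a9 was 0.974 times that level and higher in 4 of 9 mice (adjusted p = 0.734, exact test). The log2 ratio of S100a8 ranged from -0.68 to 0.55 over the 9 mice.

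Between sick and healthy mice, the calprotectin genes passed the test in erythroid cells and, for S100a8, in monocytes or macrophages, but not in neutrophils. Erythroid S100a8 was at 24461, 27878, 21255, 19974 and 25719.9 CPM in sick mice 1, 3, 4, 5 and 6, against 19284, 11854, 8442 and 7096 CPM in healthy mice 1 to 4. All sick mice lay above all healthy mice, as held for 3.19% of genes there, the nearest pair being sick mouse 5 and healthy mouse 1. The fold was 1.03 ± 0.24 on the log2 scale (SE, adjusted p = 0.0273), and that of S100a9 was 0.94 ± 0.23 on the log2 scale (SE, adjusted p = 0.0321). These were 2 of the 5 members tested there, where 0.848% of genes were called higher and 1.35% in either direction. Both calls were lost without sick mouse 3 or 6, or without healthy mouse 2, 3 or 4 (highest adjusted p 0.176 for S100a8 and 0.17 for S100a9). With healthy mouse 1 as the only healthy mouse, the fold of S100a8 was 0.29 (adjusted p = 0.85). Under the first rule, erythroid S100a8 differed by 0.44 (adjusted p = 0.43) and S100a9 by 0.11 (adjusted p = 0.898) on the log2 scale, and no member was called, where 1.23% of 2027 genes were.

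In monocytes or macrophages, S100a8 was at 25201, 30516, 31842, 23840.0 and 25578 CPM in sick mice 1, 3, 4, 5 and 6, against 13359, 12461, 11326 and 14450.3 CPM in healthy mice 1 to 4, with no overlap, as for 3.39% of genes there. Its fold was 1.09 ± 0.25 on the log2 scale (SE, adjusted p = 0.047), the only call among 8 members, where 0.457% of 1533 genes were called higher. S100a9 differed by 0.84 (adjusted p = 0.105), also with no overlap. The S100a8 call was lost when any healthy mouse, or sick mouse 5 or 6, was left out (highest adjusted p 0.159), and with gate thresholds of 0.01 or 0.0001. The 16 neutrophil markers moved with these genes. Summed, they stood at 7811 to 10319 plain CPM in monocytes or macrophages of sick mice, against 3842 to 6832 in healthy mice, with 14 to 15 of them counted in sick mice and 11 to 15 in healthy mice. In erythroid cells they stood at 7074 to 11917 plain CPM in sick mice and 3847 to 9400.4 in healthy mice. Their part in the S100a8 and S100a9 differences was not tested.

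In neutrophils themselves, S100a8 was at 212214, 189487, 170330.0, 197292 and 190620.0 CPM in sick mice 1, 3, 4, 5 and 6, against 172891, 120474, 112911 and 116670.0 CPM in healthy mice 1 to 4. Healthy mouse 1 lay within the sick range and healthy mice 2 to 4 below it. The fold was 0.55 ± 0.28 on the log2 scale (SE, adjusted p = 0.526) for S100a8 and 0.43 ± 0.27 on the log2 scale (SE, adjusted p = 0.612) for S100a9. No member was called, where 0.655% of 3970 genes were. At an unadjusted p under 0.05, 1 of the 7 members tested (S100a6) was higher, where 4.79% of genes were, and DESeq2 called 0 members and 0.806% of genes. Without healthy mouse 1, S100a6 was called there with a fold of 1.11 (adjusted p = 0.0436, edgeR), as 1.87% of genes were. Under the first rule the S100a8 fold in neutrophils was 0.77 (adjusted p = 0.361), where 1.69% of 5516 genes were called and 0 members. There, leaving out healthy mouse 1 called S100a8, S100a9, S100a6 and S100a11, with folds of 1.06, 1.00, 1.49 and 1.16 (adjusted p = 0.00714, 0.00675, 0.000451 and 0.00429), where 9.94% of genes were called.

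Granulocyte progenitors had S100a8 higher in every sick mouse than in every healthy mouse, as 2.87% of genes there were, with a fold of 0.92 ± 0.32 on the log2 scale (SE, adjusted p = 0.233). S100a9 differed by 0.96 (adjusted p = 0.163), and no member was called, where 0.728% of 2609 genes were. DESeq2 called both chains and 1.07% of genes. The neutrophil markers there summed to 13638 to 20174 plain CPM in sick mice and 5059 to 12000.4 in healthy mice, and their part was not tested. Without healthy mouse 2 edgeR called S100a9 alone, with a fold of 1.28 (adjusted p = 0.0274), where 0.899% of genes were called. B cells differed by 0.58 (adjusted p = 0.609) in S100a8 and 0.91 (adjusted p = 0.239) in S100a9, where 2.85% of 526 genes were called and 0 members, with neutrophil markers at 7529.7 to 9857 plain CPM in sick mice and 2713 to 8069 in healthy mice.

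**Figure D3:**
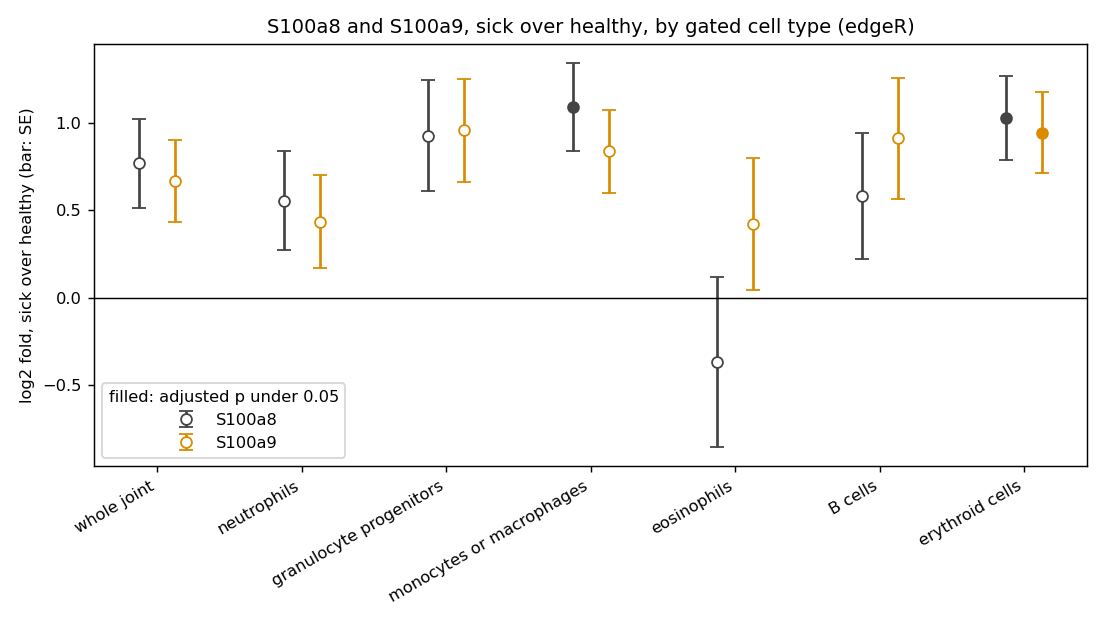
Log2 fold of sick over healthy mice (points, with SE as bars, edgeR after TMM scaling) for S100a8 and S100a9 in the whole joint and in 6 gated cell types. Filled points passed an adjusted p of 0.05, namely S100a8 in monocytes or macrophages and both genes in erythroid cells, while the neutrophil folds were 0.55 and 0.43.

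No difference in the response between cell types passed the test. The neutrophil fold minus the erythroid fold was -0.70 ± 0.34 (adjusted p = 0.623) for S100a8 and -0.69 ± 0.33 (adjusted p = 0.623) for S100a9 in an edgeR interaction test with mouse as a block. Neutrophils minus monocytes or macrophages gave -0.58 ± 0.22 (adjusted p = 0.656) for S100a8. Monocytes or macrophages minus erythroid cells gave -0.05 ± 0.34 (adjusted p = 0.993) for S100a8. These tests called 0 of 2776 to 4428 genes, so the background is 0%. Unadjusted, 4 of the 7 members tested (S100a8, S100a9, S100a11 and S100a13) passed 0.05 between neutrophils and erythroid cells, as 7.84% of all genes did. The ratio of neutrophils to erythroid cells was 2 to the power of 3.14 ± 0.20 in sick mice and 3.65 ± 0.31 in healthy mice for S100a8 (exact permutation test, two-sided, p = 0.0317, adjusted p = 0.3 over 42 comparisons). With 5 mice against 4 the smallest p is 0.0159. None of the 42 ratios passed the adjustment. Over the first rule's 2 classes, the S100a8 ratio was 3.41 in sick and 2.91 in healthy mice, the opposite order (adjusted p = 0.148 over 8 comparisons, exact test).

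The balance of the calprotectin chains, compared after the data were seen, differed by cell type. Neutrophils gave 44.6 ± 1.91 S100a9 counts per 100 S100a8 counts in sick mice and 48.4 ± 3.61 in healthy mice. Eosinophils, granulocytes marked by genes such as Prg2 and Epx, gave 115, 133, 126, 95.1 and 72.0 S100a9 counts per 100 S100a8 counts in sick mice 1, 3, 4, 5 and 6, against 126, 50.3 and 52.2 in healthy mice 1 to 3. The value was above that of neutrophils of the same mouse in 7 of 8 mice, by 0.95 ± 0.64 on the log2 scale (SD; exact sign-flip permutation test, two-sided, p = 0.0156, adjusted p = 0.0195 over 5 classes). The exception was healthy mouse 2. Neutrophil markers in the eosinophil class summed to 19562 to 44173 plain CPM in sick mice and 13189.8 to 21434 in healthy mice, and their part in the ratio was not tested. In healthy mice 2 and 3 the eosinophil markers in this class summed to 16555 and 17328 plain CPM with Siglecf at 0, against 27660 to 40151 in sick mice and 46776 in healthy mouse 1.

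The other classes lay below neutrophils in the mean over mice. Erythroid cells gave 37.5 ± 2.47 S100a9 counts per 100 S100a8 counts in sick mice and 41.3 ± 6.24 in healthy mice, lower than neutrophils in 8 of 9 mice (adjusted p = 0.013, same exact test). B cells gave 39.1 ± 3.06 in sick mice and 31.2 ± 4.39 in healthy mice, lower in 9 of 9 mice (adjusted p = 0.013, exact test). Between sick and healthy mice, none of 7 classes tested, the whole joint among them, passed the adjustment (smallest adjusted p = 0.111, exact permutation test). That p was of B cells, at 35.8 to 43.5 in sick mice and 24.9 to 35.0 in healthy mice, without overlap. Their unadjusted p of 0.0159 (same test) is the smallest that 5 mice against 4 can give. A single separated class could therefore not pass over 7 comparisons. Against erythroid cells, eosinophil S100a9 was 3.45-fold higher in 8 of 8 mice (adjusted p = 0.0113), whereas eosinophil S100a8 was 1.47-fold higher, in 5 of 8 mice (adjusted p = 0.169). Eosinophils of sick and healthy mice differed by -0.37 (adjusted p = 0.834) in S100a8 and 0.42 (adjusted p = 0.689) in S100a9. The direction of the S100a8 difference turned with the scaling, since the means were 27123 ± 9292 plain CPM in sick mice and 21423 ± 9536 in healthy mice, but 37493 ± 12342 CPM in sick mice and 48411 ± 28145 CPM in healthy mice (SD, n = 5 and 3) after TMM scaling, and the fold ranged from -0.76 to 1.17 over the alternatives. There edgeR called 0 of 347 genes (0%), with 49 at an unadjusted p under 0.05 (14.1%), and DESeq2 called 18 (5.19%), none of them a member.

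**Figure D4:**
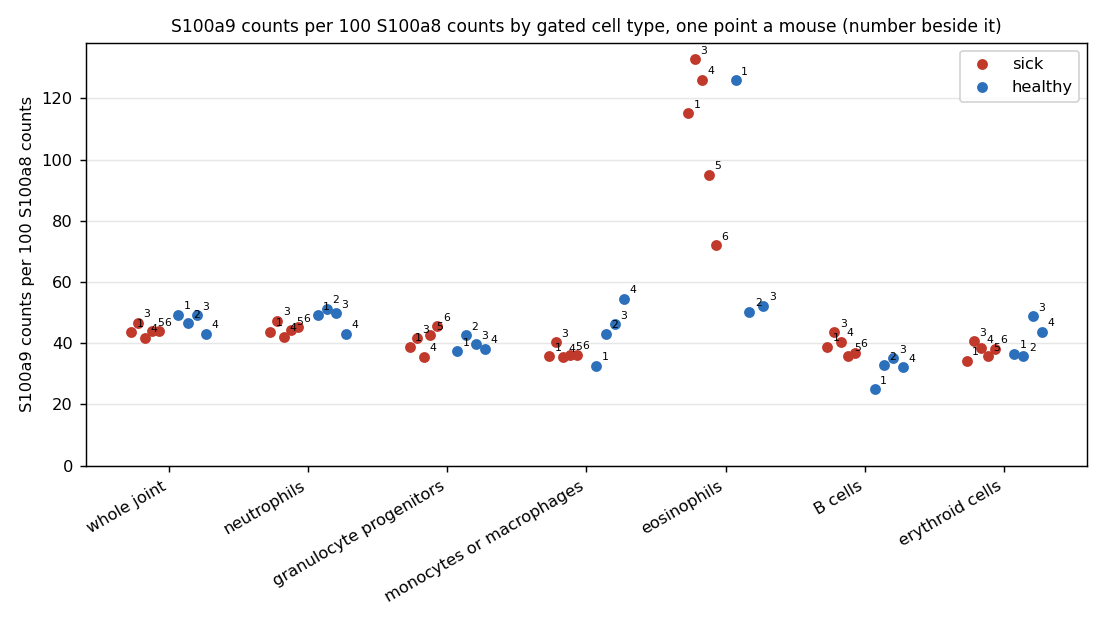
S100a9 counts per 100 S100a8 counts (linear axis from 0) by gated cell type, with 1 point per mouse (number beside it), sick mice left of healthy mice. All classes but eosinophils lie between 24.9 and 54.5, while eosinophils reach 72.0 to 133 in sick mice and 126 in healthy mouse 1.

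The members outside calprotectin were low in erythroid cells, and their leading classes differed. S100a4, a binder of non-muscle myosin, was 409 ± 136 plain CPM in sick mice and 224 ± 137 in healthy mice in monocytes or macrophages, against 6.02 ± 5.23 in erythroid cells and 10.5 ± 7.15 in neutrophils over all 9 mice. With 2 counts added to each sum per mouse, it was 16.5-fold above erythroid cells, in 9 of 9 mice (adjusted p = 0.0082, exact test). The log2 ratio was 4.94 ± 0.77 in sick mice and 2.92 ± 1.02 in healthy mice. The erythroid sums held only 10 S100a4 counts in sick mice and 2 in healthy mice. The size of the ratio therefore rests largely on the added counts. By the same ratio, neutrophils and erythroid cells, with 3 of 9 mice higher in neutrophils, were not separated (adjusted p = 0.3, exact test). The mean plain CPM above were higher in neutrophils, so no order of these classes is read from so few counts.

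S100a10, the partner of annexin A2, also led in monocytes or macrophages among the 6 classes compared in both groups. It was 1051 ± 199 plain CPM in sick mice and 802 ± 262 in healthy mice in monocytes or macrophages, 13.8-fold above erythroid cells in 9 of 9 mice (adjusted p = 0.0082, exact test). Neutrophils, at 45.6 ± 8.66 plain CPM, held 0.760 times the erythroid level and were above it in 2 of 9 mice (adjusted p = 0.0476, exact test). The healthy sums were only 17 erythroid and 36 neutrophil counts, so this ratio rests partly on the 2 counts added to each sum. In plain CPM, neutrophils and erythroid cells averaged 45.6 and 48.7 in healthy mice, and 45.5 and 58.2 in sick mice. Under the first rule the direction was the opposite, with neutrophils 1.76-fold above erythroid cells in 9 of 9 mice (adjusted p = 0.00521 over 8 comparisons, exact test), so the order of these classes rests on the gate. Among the 6 classes, B cells, at 177 ± 110.5, and granulocyte progenitors, at 113 ± 74.4, came next and overlapped. Plasmacytoid dendritic cells of 3 sick mice lay higher, at 393 ± 86.8 plain CPM, and skeletal muscle cells of 2 sick mice held 355 ± 275.

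S100a6 was spread more widely. Among the 6 classes compared, over all mice, it averaged 664 ± 305 plain CPM in monocytes or macrophages, 430.2 ± 257 in eosinophils and 385 ± 167 in neutrophils, whose spreads overlapped. Outside these classes, skeletal muscle cells of 2 sick mice held 559 ± 109 plain CPM and plasmacytoid dendritic cells of 3 sick mice 513 ± 58.2. Granulocyte progenitors (93.0 ± 49.5), B cells (91.6 ± 62.4) and erythroid cells (87.9 ± 59.3) formed a lower group with nearly equal means. Neutrophils stood 3.70-fold above erythroid cells in 9 of 9 mice (adjusted p = 0.0082, exact test), and granulocyte progenitors 1.09-fold (adjusted p = 0.609).

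S100a11 was highest in neutrophils, at 829 ± 261 plain CPM in sick mice and 557 ± 208 in healthy mice, 6.09-fold above erythroid cells. Of the classes compared over both groups, monocytes or macrophages followed at 411 ± 155 plain CPM and eosinophils at 288 ± 111 over all mice. The ranges of these neighbours over mice overlapped, and they were not tested against each other within mice. S100a13 averaged 144 ± 52.2 plain CPM in monocytes or macrophages, 126 ± 33.4 in neutrophils and 123 ± 38.5 in granulocyte progenitors, all within 1 SD of each other, and 24.3 ± 15.9 in erythroid cells. Plasmacytoid dendritic cells of 3 sick mice held 184 ± 166 plain CPM and fibroblasts of sick mouse 3 held 212.

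S100a1, the muscle member, had its highest mean plain CPM in granulocyte progenitors. It was at 174 ± 37.0 plain CPM there over all 9 mice, 149 to 228 in sick mice and 117 to 203 in healthy mice. It was 6.26-fold above erythroid cells in 9 of 9 mice (adjusted p = 0.0082, exact test). The erythroid sums held 26 S100a1 counts in sick mice and 6 in healthy mice. The size of this ratio therefore rests partly on the 2 counts added to each sum. Monocytes or macrophages held 109.7 ± 34.4 and neutrophils 55.5 ± 14.8 plain CPM. After thinning to 400 counts per cell, the share of cells with S100a1 did not keep this order in sick mice. It was 5.05% ± 1.93 in granulocyte progenitors and 5.85% ± 1.58 in monocytes or macrophages there. In healthy mice it was 7.09% ± 2.38 in granulocyte progenitors and 2.88% ± 2.09 in monocytes or macrophages. Median depth in sick mice was 1805 counts in granulocyte progenitors and 891 in monocytes or macrophages. The cells gated as skeletal muscle had enough cells in sick mice 3 and 6 only, with 2 S100a1 counts each (57.8 and 80.2 plain CPM, exact Poisson 95% intervals 7.003 to 209 and 9.72 to 290), too few to rank muscle.

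**Figure D5:**
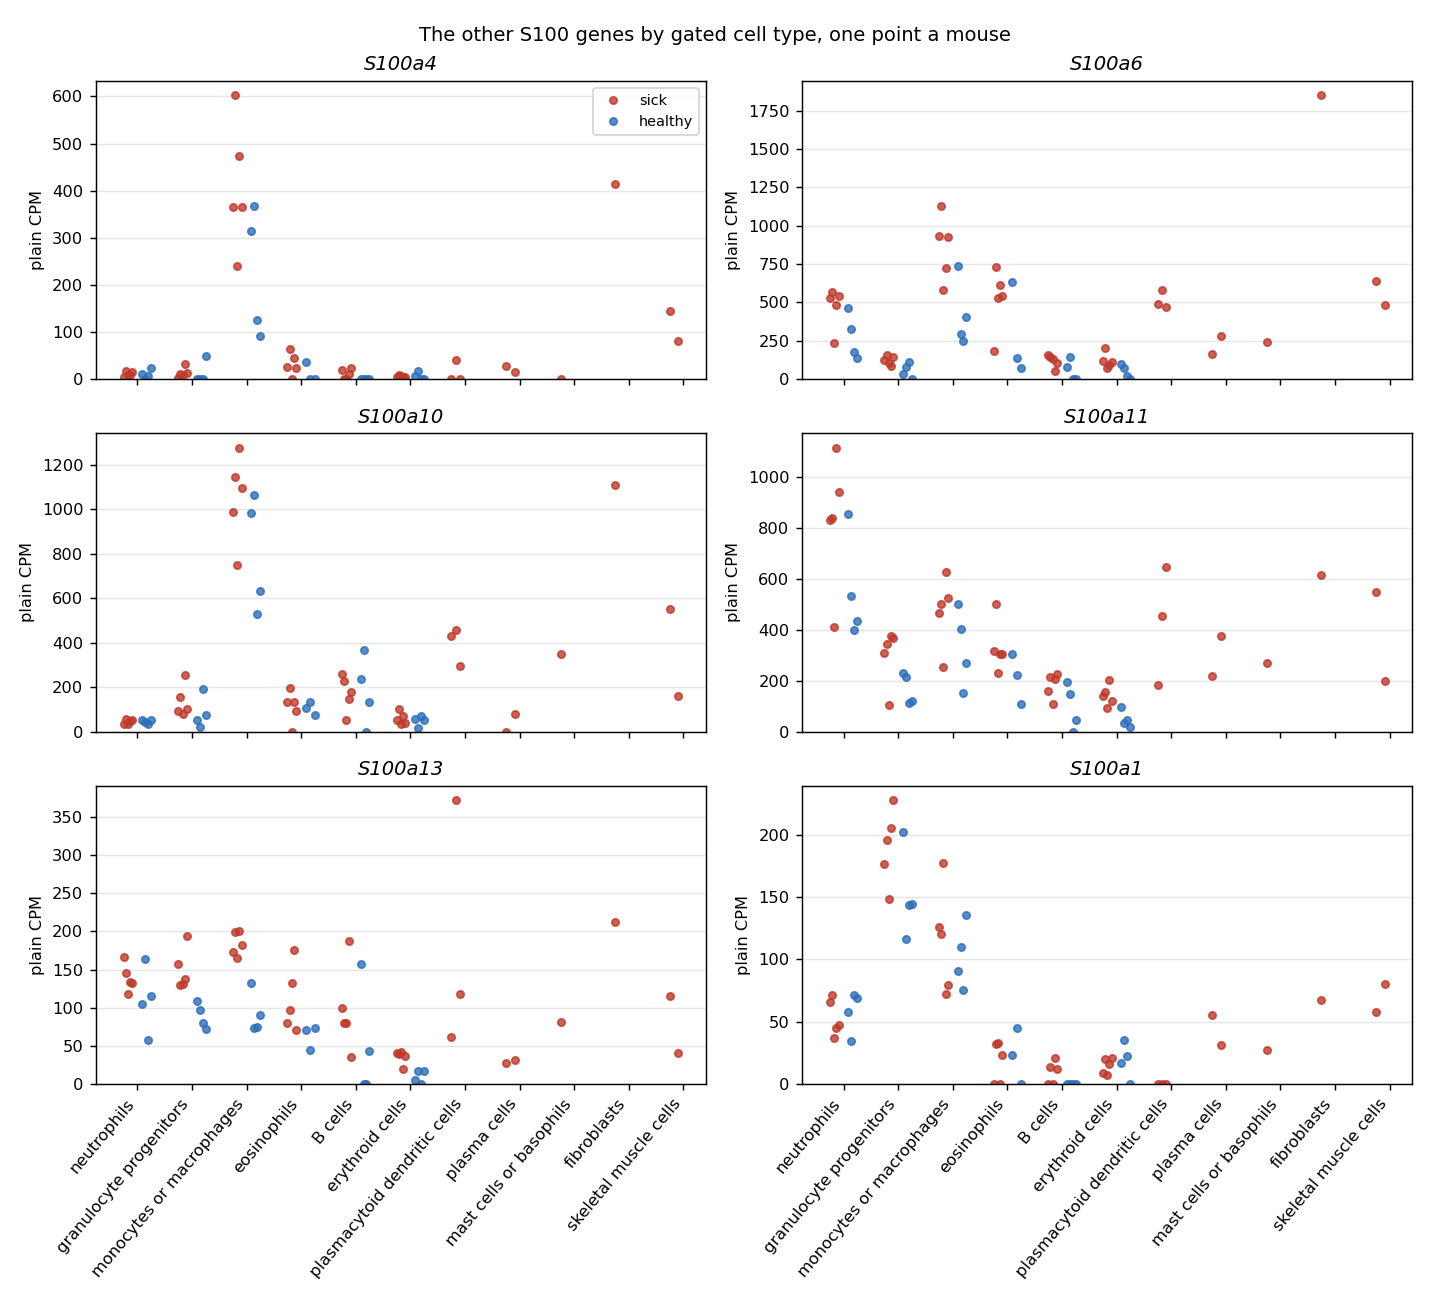
Plain CPM (linear axes from 0, a scale of its own for each gene) of the other 6 members by gated cell type, with 1 point per mouse, sick mice left of healthy mice within each class. Monocytes or macrophages lead the blood classes for S100a4 and S100a10, neutrophils for S100a11, and granulocyte progenitors for S100a1, while the fibroblast point is sick mouse 3 alone.

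Fibroblasts reached 20 cells in sick mouse 3 only, where 67 cells held 192 counts of S100a6. This gave 1850.2 plain CPM (exact Poisson 95% interval 1598 to 2131, counting error only). S100a10 was at 1108 plain CPM (915 to 1330.2) and S100a4 at 414 (299.9 to 558) in the same cells. No comparison with healthy fibroblasts could be made.

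None of these 6 members was called between sick and healthy mice in any class. Without healthy mouse 1, S100a11 was called in erythroid cells with a fold of 2.17 (adjusted p = 0.0395), where 2.14% of genes were called, against 1.18 (adjusted p = 0.123) with all mice. In monocytes or macrophages S100a6 was at 1158, 1605, 883, 962 and 1215 CPM in sick mice 1, 3, 4, 5 and 6, against 997, 439, 426 and 657 CPM in healthy mice 1 to 4, a fold of 0.78 (adjusted p = 0.247). Healthy mouse 1 lay within the sick range. S100a13 there was higher in every sick mouse than in every healthy mouse, as held for 3.39% of genes there. Its fold was 0.71 (adjusted p = 0.461), from 141 counts in sick mice and 23 in healthy mice. In granulocyte progenitors S100a13 also did not overlap, as held for 2.87% of genes there, at a fold of 0.56 (adjusted p = 0.542). In monocytes or macrophages S100a4 differed by 0.67 (adjusted p = 0.475) and S100a10 by 0.23 (adjusted p = 0.733). In neutrophils the folds were 0.67 (adjusted p = 0.404) for S100a6, 0.50 (adjusted p = 0.526) for S100a11 and 0.32 (adjusted p = 0.687) for S100a13. S100a1 differed by 0.14 (adjusted p = 0.902) in granulocyte progenitors.

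Of the 6 classes compared, the share of cells with a count, after thinning to 400 counts per cell, was highest in monocytes or macrophages for S100a4 and S100a10 and in neutrophils for S100a11, in both groups. The share of monocytes or macrophages with S100a4 was 15.3% ± 5.44 in sick mice and 7.42% ± 3.14 in healthy mice, and the erythroid share was 0.513% ± 0.333 in sick mice and 1.20% ± 1.82 in healthy mice. For S100a10 the share of monocytes or macrophages was 30.5% ± 5.93 in sick mice and 23.5% ± 5.23 in healthy mice, and the erythroid share 2.67% ± 1.71 in sick mice and 2.43% ± 2.00 in healthy mice. The neutrophil share of S100a11 was 29.4% ± 6.41 in sick mice and 21.5% ± 6.58 in healthy mice, and the erythroid share 5.34% ± 0.935 in sick mice and 1.68% ± 1.98 in healthy mice. S100a8 and S100a9 were found in every neutrophil of every mouse, so their shares there cannot show a difference. Of 48 pairs of member and class, none passed (exact permutation test, two-sided, smallest adjusted p = 0.152). Of 16 pairs under the first rule, none passed (smallest adjusted p = 0.0847). With 5 mice against 4 the smallest p is 0.0159. In either set a pair could therefore pass only if several others were fully separated too. Under the second rule, every sick mouse was above every healthy mouse for S100a8 and S100a9 in monocytes or macrophages and S100a6 in eosinophils. The same held for S100a8, S100a11 and S100a13 in erythroid cells. Shares were computed for the members only, so no background over all genes is given. Unthinned, S100a4 was found in 32.7% of monocytes or macrophages in sick mice and 19.5% in healthy mice.

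Genes of the pathway were read from fixed lists in the whole joint. Of 9 tested receptors and adaptors of S100 proteins, none was called, with a median log2 fold of 0.43 against -0.02 over all tested genes. At an unadjusted p under 0.05, 4 were higher (7.43% of all genes) and 1, Cd36, was lower (6.38% of all genes). Cd14, a TLR4 co-receptor, averaged 335 plain CPM in sick and 155 in healthy mice (fold 0.89, adjusted p = 0.158). Tirap, a TLR adaptor, averaged 27.4 plain CPM in sick and 12.2 in healthy mice (fold 0.95, adjusted p = 0.165). Cd36, a scavenger receptor named here after its values were seen, averaged 50.2 plain CPM in sick and 68.0 in healthy mice (fold -0.76, adjusted p = 0.238). In neutrophils under the first rule it averaged 18.5 plain CPM in sick and 46.2 in healthy mice and was called lower (fold -1.62, adjusted p = 0.0467), as 0.816% of genes were. That call was lost without sick mouse 1, 3, 5 or 6, or healthy mouse 2, 3 or 4 (highest adjusted p 0.193), and with healthy mouse 1 as the only healthy mouse the fold was -0.41 (adjusted p = 0.889). Erythroid cells under the first rule held more Cd36 than neutrophils, 124 plain CPM in sick and 159 in healthy mice (fold -0.45, adjusted p = 0.648, edgeR). Summed erythroid markers in neutrophils of the second rule averaged 1077 plain CPM in sick and 1750 in healthy mice. The part of erythroid RNA in the Cd36 difference of neutrophils was not tested. Of 10 tested binding partners none was called (median 0.21). The smallest p were those of Anxa1 (fold 0.57, adjusted p = 0.254) and Anxa2 (fold 0.59, adjusted p = 0.292), the annexins bound by S100a11 and S100a10.

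Of 9 tested genes induced through TLR4, such as cytokines, none was called (median 0.90), although 5 were higher at an unadjusted p under 0.05, as 7.43% of all genes were. The chemokine Ccl4 averaged 65.1 plain CPM in sick and 24.0 in healthy mice (fold 1.16, adjusted p = 0.18). Cxcl2 averaged 82.4 plain CPM in sick and 31.9 in healthy mice (fold 1.10, adjusted p = 0.286). Of 8 transcription factors known to act at S100a8 or S100a9 or in granulocytes, 1 rose, Stat3, and none fell (median 0.44), where 0.94% of all genes were called. Stat3 averaged 54.7 plain CPM in sick and 24.0 in healthy mice, a fold of 0.94 ± 0.21 (SE, adjusted p = 0.0481). The call was lost without sick mouse 1, 3, 5 or 6, or healthy mouse 1, 3 or 4 (highest adjusted p 0.161), at folds of 0.84 to 0.95. It was also lost with S100a8 and S100a9 taken out of the totals (adjusted p = 0.0544), with cells of at least 400 genes (adjusted p = 0.106) and with healthy mouse 1 as the only healthy mouse (adjusted p = 0.746). The table held 7 other S100 symbols, and the 6 of them on a fixed list did not have enough counts to test.

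Patterns most like each member were read over 11 classes with at least 50 cells in all and a mouse with at least 20 of them, from mean log2 plain CPM and 7428 genes, as Pearson correlations. The points share libraries and free RNA, so the values only describe. Nearest to S100a8 were Wfdc21 (0.98), Cd177 (0.97), Ngp (0.93). Nearest to S100a9 were Ngp (0.98), Wfdc21 (0.97), Camp (0.97). Ngp, Camp, Cd177 and Wfdc21, neutrophil granule and surface genes, were also markers of the gate. S100a4 was nearest to Emp1 (0.97), Crip1 (0.96), Lrp1 (0.95), and S100a6 to Anxa2 (0.96), Gabarap (0.93), Plec (0.90), the first of which encodes an annexin. S100a10 was nearest to Cd302 (0.96), Klf4 (0.96), Emp1 (0.95), of which Klf4 was a gate marker. S100a11 was nearest to Scp2 (0.89), Sh3bgrl3 (0.87), Cd9 (0.86), S100a13 to Usp22 (0.95), Cyfip1 (0.94), Scp2-ps2 (0.93), and S100a1 to Ifngr1 (0.88), Mrpl33 (0.87), Soat1 (0.85).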

How the data were processed

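Per the labels, whole left knee joints of 9 mice were profiled by Seq-Well, and each library was sequenced several times and merged. The authors processed the reads with the Drop-seq computational protocol, with bcl2fastq, Picard and STAR per the submitters' processing notes; the labels name a human build and the notes GRCm38 and mm9, so the build used is not settled here. The deposited file holds raw counts per gene and cell. No doublet caller was used, and gated cells can hold markers of another class.

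Only cells with 200 genes or more and no more than 20% mitochondrial counts entered. Counts were summed per mouse and tested with edgeR 4.0.16 (quasi-likelihood, TMM, filterByExpr, Benjamini-Hochberg over all tested genes, false discovery rate 0.05) in R 4.3.3, and with DESeq2 1.42.0 as an alternative. Standard errors are the log2 fold over the root of F. Gates used 196 markers of 16 classes. A first gate (3 markers, 2 times any other class) left too few cells outside neutrophils and erythroid cells for the planned comparisons with monocytes and B cells; a second gate on the excess over the mouse's own average was added after seeing the data. A class needed 20 cells per mouse (10 for B cells) and 3 mice per group. Shares and ratios (prior count 2) were tested by exact permutation in scipy 1.17.1. Scripts were tested on simulated data.

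Of the named genes, all members are given; of each list, those past the threshold or else the 2 smallest p; and per member the 3 genes of most like pattern. The members and lists were chosen with earlier results of these data known. Nothing says how the mice were housed or processed together, so p-values measure the spread between these mice. Intervals cover counting error only. Sequences are from RefSeq (GRCm38.p6), which matched 7 members.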

Additional observations from a re-analysis of the deposited data

Results flagged for a closer look

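A mouse was taken as standing apart where its gap to the nearest mouse of its group exceeded Dixon's 95% critical value for the group's range. Of 102 groups of values checked, 8 held such a mouse, and chance gives about 1 in 20. S100a8 in neutrophils of the first gate was at 118454 CPM in healthy mouse 1, against 64595 to 66905 CPM in the other healthy mice. S100a9 in neutrophils of the first gate was at 59935 CPM in healthy mouse 1, against 27683 to 32382 CPM in the other healthy mice. S100a4 in neutrophils of the first gate was at 32.6 CPM in healthy mouse 1, against 18.9 to 20.9 CPM in the other healthy mice. S100a1 in neutrophils of the first gate was at 83.6 CPM in healthy mouse 3, against 42.8 to 49.4 CPM in the other healthy mice. S100a8 in neutrophils of the second gate was at 172891 CPM in healthy mouse 1, against 112911 to 120474 CPM in the other healthy mice. S100a6 in neutrophils of the second gate was at 254 CPM in sick mouse 4, against 526 to 598 CPM in the other sick mice. S100a9 in B cells of the second gate was at 10694 CPM in sick mouse 5, against 15082 to 16783 CPM in the other sick mice. S100a11 in eosinophils of the second gate was at 680.4 CPM in sick mouse 3, against 349 to 435 CPM in the other sick mice. Healthy mouse 1 accounts for 4 of these values. The comparisons without each mouse are given with the processing alternatives.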

How the results depend on the processing

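Of 1038 values recomputed under an alternative (counts of called members, and the folds the text gives, not every member in every class), 919 kept their direction and side of the threshold, 44 single-gene values lost a call, 33 gained one, 6 reversed and 36 counts of called members changed. The cause was not tested for any of them. In the whole joint, with 0 members called, DESeq2 called 2, no filter on low counts called 3, and leaving out each mouse in turn gave 0 to 1. In neutrophils of the first gate, with 0 called, DESeq2 called 1, no filter 2, and leaving out mice gave 0 to 4. In neutrophils of the second gate, with 0 called, no filter called 1 and leaving out mice gave 0 to 1. In granulocyte progenitors, with 0 called, DESeq2, no filter and cells with at least 400 genes each called 2, and leaving out mice gave 0 to 1. In monocytes or macrophages, with 1 called, DESeq2 and no filter called 2, and leaving out mice gave 0 to 1. There RLE factors, leaving out healthy mice 2, 3 and 4 together, the replicate block and gate thresholds of 0.0001 and 0.01 called 0. In B cells, with 0 called, no filter called 2 and leaving out healthy mice 2, 3 and 4 together called 1. In erythroid cells of the second gate, with 2 called, leaving out mice gave 0 to 3, leaving out healthy mice 2, 3 and 4 together 0, and the replicate block and the gate threshold of 0.0001 called 1 each. In the interaction of neutrophils and erythroid cells under the first gate, leaving out mice gave 0 to 1 against 0. S100a9 in erythroid cells of the first gate, at 0.11, ranged from -0.049 (without healthy mouse 4) to 0.401 (without healthy mouse 3) when mice were left out, and was -0.0315 without the gate's factor of 2. S100a1 in granulocyte progenitors, at 0.14, turned to -0.0643 under the replicate block. S100a8 in eosinophils, at -0.37, turned to 0.18 with no filter, 1.17 without healthy mice 2, 3 and 4 and 0.0466 under the replicate block. Mice 1, 3 and 4 share only a number between groups: the correlations of their deviations were 0.17, -0.05 and 0.07, so the block (the replicate number as a term) is no pairing. Under it Stat3 had an adjusted p of 0.102. The planned comparison of neutrophils with monocytes and the ratio to B cells could not be made under the first gate, for want of cells. Where 1 healthy mouse was left, it is assumed to vary like the other mice. Depth limits the members outside calprotectin, which had as few as 0 counts of S100a4 in the B cells of healthy mice.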
